A study of Mus musculus with 14 samples.

Results

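Glutathione S-transferases were followed in mouse liver through 10 genes of the soluble family: the alpha-class Gsta2, Gsta3 and Gsta4, the mu-class Gstm1, Gstm2, Gstm3, Gstm4 and Gstm6, the pi-class Gstp1 and the theta-class Gstt1. The members were all probe sets that the platform's gene table lists under these symbols, 16 of the 45101 probe sets on the array, and they stand for 10 of the 18193 genes that the table names singly. Of the 16, 15 are listed with 1 gene, and 1 is listed with Gsta1, Gsta2 and the predicted gene Gm3776 together. Livers came from 14 male CBA/J mice, an inbred strain, housed singly and given 84 kcal per week of food built on the AIN93M purified formula. From 2 months of age 7 mice ate the control diet and 7 a diet with a krill powder extract, matched to it in total protein and total lipid but not in amino acids or fatty acids, and after 3 months on the diets, at an age of 5 months, tissue was taken. RNA of each mouse was read on its own Affymetrix array as signal intensity, an arbitrary linear brightness unit, so the number of arrays limits the precision.

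These enzymes join the tripeptide glutathione to reactive electrophiles, among them drug metabolites, carcinogen epoxides and the aldehydes left by lipid peroxidation. The conjugates are then pumped out of the cell and trimmed to mercapturates. In liver many of the genes answer to the oxidant sensor NRF2 (gene Nfe2l2), held in check by Keap1, and to the xenobiotic receptors CAR and PXR, and hepatocytes are rich in the alpha, mu and pi classes.

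The diets also differed in array quality, which touches every value below. Hybridisation spike-ins, bacterial and phage transcripts that the standard Affymetrix protocol adds to each sample, had a mean log2 signal of 12.92 ± 0.22 (SD, n = 7) on the control diet and of 13.71 ± 0.62 (SD, n = 7) on krill (two-sided exact permutation test, p = 0.0128, adjusted p = 0.0128 over 2 measures), and krill replicates 2, 4, 5 and 7 lay above every control array. An index of 3' over 5' signal, which rises as RNA is shortened, ran from 1.56 to 2.28 (log2) in control and from 2.44 to 3.12 on krill (same test, exact permutation p = 0.000583, adjusted p = 0.00117). With no overlap in that index, diet and index cannot be told apart as sources of a change. For the spike-ins, changes are given with all 14 arrays and again without krill replicates 2, 4, 5 and 7. That leaves 3 krill arrays with spike-ins inside the control range, from 12.92 to 13.17. The 3'/5' index of these krill replicates 1, 3 and 6 was 2.56, 2.44 and 3.00, above every control array. Leaving out the other arrays thus does not remove the difference in that index. The p-values measure the spread between mice and their arrays together. The tissue's defining markers were present: 7 hepatocyte markers tested, Alb, Apoa1 and Ttr among them, summed to a signal of 306043 to 453191 in control and 389743 to 679343 in krill arrays. Of these 7 markers 4, with Alb, Apoa1 and Ttr among them, were higher and 1, Tat, was lower. Without krill replicates 2, 4, 5 and 7, 0 of them were called higher and 0 lower. Markers of pancreatic acinar cells (2 of 6 passed the signal filter, Cela1 and Prss2) summed to 2663 to 5132 in control and 6173 to 19265 in krill arrays, and their part in the results was not tested. Of 6 tested markers each of Kupffer, sinusoidal endothelial and stellate cells, 2, 1 and 1 were higher and 1 of each lower. Without krill replicates 2, 4, 5 and 7, 2, 1 and 1 were higher and 0, 1 and 0 lower. Over all genes, 1 probe set each, 23.7% were higher and 25.3% lower with all arrays. In whole tissue, fewer cells of a type and less RNA per cell cannot be told apart.

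Krill arrays read lower for the mu-class genes Gstm1 and Gstm3 and, by a narrow call that several settings ended, for Gstm2. No probe set of 1 gene from the alpha, pi or theta classes was called. The 3'/5' index also separated the diets, and with it as covariate these calls were lost. On the probe set of highest mean signal Gstm1 was 13.2-fold lower and Gstm3 2.57-fold lower, from differences in log2(signal + 16), a scale that understates the change of low values. Of the 15 probe sets of 1 gene, all past the signal filter, 7 were called lower, 0 were called higher and 8 were not called (limma, Benjamini-Hochberg adjusted p under 0.05 over 22519 probe sets). At an unadjusted limma p under 0.05, 8 were lower and 0 higher, beside 12204 of all 22519 probe sets tested in either direction. The called share of the members, 46.7%, is near that of all probe sets tested, 46.0% (25.2% lower and 20.8% higher). The members called were all lower, and 4 of the 7 are probe sets of the single gene Gstm1. The median log2 change was -0.64 over these 15 probe sets and -0.003 over all tested, and without krill replicates 2, 4, 5 and 7 it was 0.01 and -0.09, with 5 members called lower and 0 higher beside 20.0% lower and 9.99% higher of all. Spike-in scaling, which sets the arrays level on their spike-ins and moves the median of all tested to -0.75, gave 11 members lower beside 49.2% of all. Counted as genes, 1 probe set each, 3 of 10 were lower and 0 higher beside 25.3% and 23.7% (49.1% together) of 11343 genes.

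**Figure D1:**
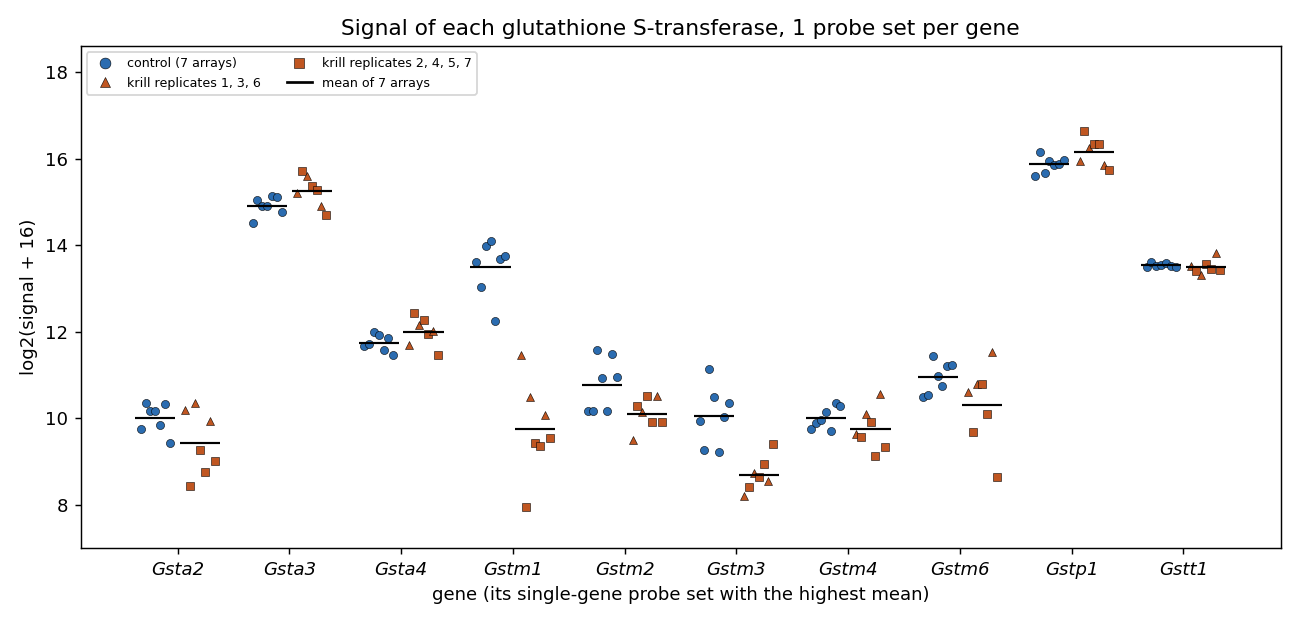
Signal on the log2(signal + 16) scale for each of the 10 genes, with circles for the 7 control arrays, triangles for krill replicates 1, 3 and 6, squares for krill replicates 2, 4, 5 and 7, and a line at the mean of 7 arrays. All krill points of Gstm1 lie below all control points, the Gstm3 points separate but for krill replicate 7, and the points of Gsta3, Gsta4, Gstp1 and Gstt1 overlap.

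Gstm1, a main mu-class transferase of mouse liver, has 4 probe sets, and all 4 were called lower with every krill array below every control array. Such a separation downward held for 7.88% of all tested probe sets (5.24% upward, with 0 members), and for 4 of the 15 members, all of them Gstm1. On 1416416_x_at the control signal was 4814 at the lowest, 13175 at the median and 17400 at the highest, and the krill signal was 232, 727 and 2813. The highest krill array, replicate 1, thus read below the dimmest control array, replicate 5. The log2 change was -3.73 (SE 0.40, 95% confidence interval -4.56 to -2.89, limma adjusted p = 1.28e-05), a fall of a size (at least 3 on the log2 scale) reached by 0.373% of tested probe sets.

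The second bright probe set, 1448330_at, went from 3058, 11065 and 14743 (lowest, median, highest) in control to 18, 374 and 2168 in krill, which is -4.65 in log2 (SE 0.66, limma adjusted p = 5.36e-05). Krill replicates 2 and 5 read 18 and 108 there, under the median of all probe sets on their arrays, 174 and 205. The suffix _x_at marks probes that may also bind other transcripts, whereas _at marks probes without a known second target. Whether the _x_at probes here also bind other mu genes was not tested. Probe set 1425627_x_at changed by -2.94 (SE 0.40, limma adjusted p = 4.26e-05) and 1425626_at, of the specific kind, by -1.72 (SE 0.32, limma adjusted p = 0.000441). On these 2 probe sets 3 and 4 of the 7 krill arrays read below their own array's median.

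The fall of Gstm1 was also present in the 3 krill arrays with control-like spike-ins. On 1416416_x_at krill replicates 1, 3 and 6 read 2813, 1428 and 1061, against 232 to 727 in krill replicates 2, 4, 5 and 7. Without the latter the log2 change was -2.81 (SE 0.35, limma adjusted p = 0.000581), a 7.00-fold difference, and the 4 probe sets ran from -2.92 to -2.05, all called. A model that also held the 3'/5' index gave estimates of -2.04, -1.93, -1.50 and -2.48 for the 4 probe sets (limma adjusted p = 0.24, 0.51, 0.402 and 0.161), in a fit that called 0 of 22519 probe sets by limma and had 3241 at an unadjusted p under 0.05.

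**Figure D2:**
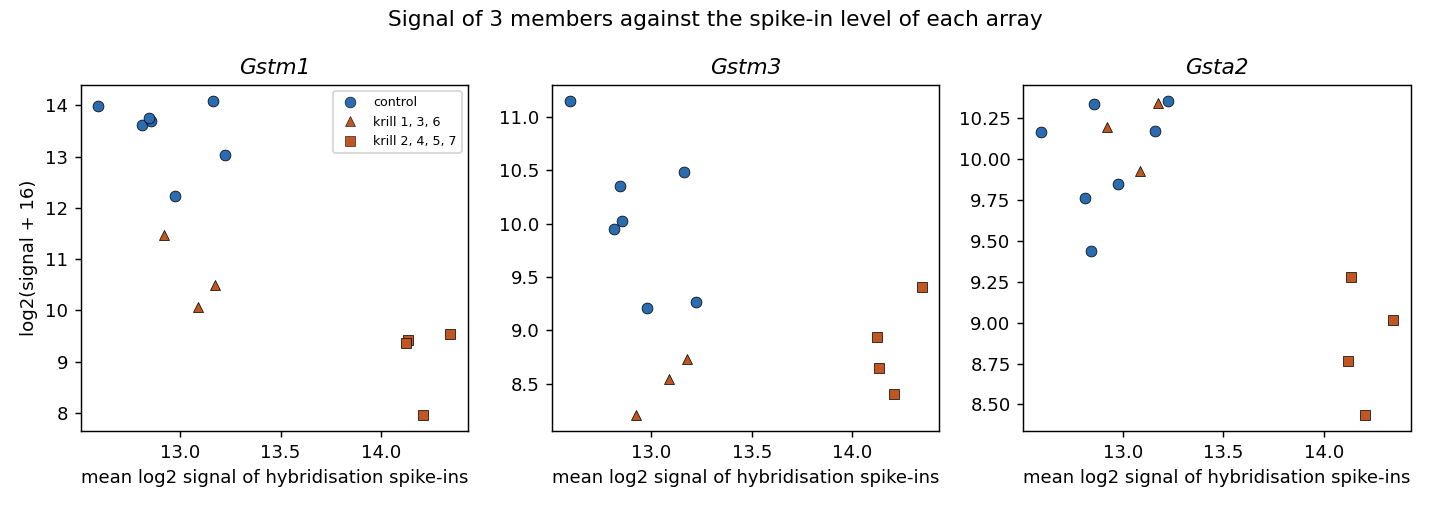
Signal of Gstm1, Gstm3 and Gsta2 on the log2(signal + 16) scale against the mean log2 signal of the 18 hybridisation spike-in probe sets, 1 point per array. Krill replicates 1, 3 and 6 lie among the controls on the spike-in axis, where they are below them in Gstm1 and Gstm3 and level with them in Gsta2.

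Gstm3, a mu-class gene known to be inducible by antioxidants, was lower on both of its probe sets. On 1427474_s_at, whose suffix marks probes shared with related transcripts, the control signal was 578, 1027 and 2257 (lowest, median, highest) and the krill signal 279, 386 and 664. In 6 of 7 krill arrays the value lay below the lowest control, the exception being replicate 7. The log2 change was -1.36 (SE 0.27, limma adjusted p = 0.000676), and -1.57 (SE 0.34, limma adjusted p = 0.00357) without krill replicates 2, 4, 5 and 7. Adding the 3'/5' index as covariate gave -1.33, which missed the threshold (limma adjusted p = 0.316). Probe set 1427473_at went from a median of 372 to 43, with control replicate 5 at 19, inside the krill range of 8.5 to 119. There 6 of 7 krill arrays and 1 control array read below their own array's median and 3 krill arrays below the added 16, so the size of its change, -2.24 (SE 0.59, limma adjusted p = 0.00546), is poorly fixed. The call was lost without those 4 arrays (-1.58, limma adjusted p = 0.096), with the spike-in level as covariate (-1.30, limma adjusted p = 0.233) and with the 3'/5' index (-0.12, limma adjusted p = 0.981).

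Gstm2, a further mu-class conjugating enzyme, read 1135, 1944 and 3065 (lowest, median, highest) in control and 708, 1123 and 1440 in krill arrays. All 7 krill arrays lay below the control median and 4 of them below the lowest control, so the groups overlap. Its log2 change of -0.67 (SE 0.25) passed narrowly (limma adjusted p = 0.0349). The call was lost when any of control replicates 3, 4, 6 and 7 or krill replicates 1, 5 and 7 was left out (log2 changes between -0.64 and -0.54, limma adjusted p from 0.057 to 0.085) and without krill replicates 2, 4, 5 and 7 (-0.73, limma adjusted p = 0.106). It was lost too with quantile normalization (-0.48, limma adjusted p = 0.14), array weights (-0.69, limma adjusted p = 0.0602), the spike-in level as covariate (-0.62, limma adjusted p = 0.224) and the 3'/5' index as covariate (-0.095, limma adjusted p = 0.96).

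Gstm4 and Gstm6, the remaining mu-class members, were not called. Gstm4 read 815, 986 and 1290 in control and 545, 780 and 1503 in krill arrays, a log2 change of -0.26 (95% confidence interval -0.69 to 0.18, limma adjusted p = 0.317). Gstm6 read 1430, 2014 and 2757 in control and 385, 1551 and 2927 in krill arrays, a log2 change of -0.64 (95% confidence interval -1.32 to 0.04, limma adjusted p = 0.111). For both genes the highest krill array, replicate 6, stood above every control. Gstm6 was called lower, at -0.84 (limma adjusted p = 0.0284), when that array was left out. Without krill replicates 2, 4, 5 and 7 the changes were 0.09 (interval -0.35 to 0.53) and 0.03 (interval -0.47 to 0.53). Spike-in scaling called both lower, at -1.03 and -1.41 (limma adjusted p = 0.0269 and 0.0237).

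The mu genes lie side by side on chromosome 3, in the order Gstm5, Gstm7, Gstm6, Gstm3, Gstm2, Gstm1, Gstm4 of assembly GRCm38.p6. The 3 called lower are next to each other among the coding genes of this row. That run rests on the narrow call of Gstm2, whose change of -0.67 was close to the -0.64 of Gstm6, not called. Log2 changes along the row, on each gene's probe set of highest mean signal, were 0.10, 0.08, -0.64, -1.36, -0.67, -3.73 and -0.26. Stretches before the start of 4 of these genes, 250 bases or those of them that precede every listed start of the gene, are shown because the genes differ in response and sit in 1 cluster. They are from RefSeq on GRCm38.p6, minus strand, with capitals for the longest run that each shares with Gstm1, and in Gstm1 for the run shared with Gstm3. The table gives 2 starts each for Gstm1 and Gstm4, of which the downstream one was used, so that 95 and 247 bases are shown. The run marked in Gstm4 begins 85 bases before the start of Gstm1, in the part of its 250 bases that is not shown.
Gstm1, chr3:108017974-108018068: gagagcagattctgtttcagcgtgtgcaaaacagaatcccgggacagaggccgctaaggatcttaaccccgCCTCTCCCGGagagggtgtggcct
Gstm3, chr3:107969175-107969424: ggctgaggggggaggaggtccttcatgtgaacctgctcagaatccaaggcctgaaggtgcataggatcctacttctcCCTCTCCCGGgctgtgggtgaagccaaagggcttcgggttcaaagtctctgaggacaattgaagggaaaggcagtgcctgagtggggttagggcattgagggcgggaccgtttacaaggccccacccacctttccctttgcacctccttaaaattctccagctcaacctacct
Gstm2, chr3:107986421-107986670: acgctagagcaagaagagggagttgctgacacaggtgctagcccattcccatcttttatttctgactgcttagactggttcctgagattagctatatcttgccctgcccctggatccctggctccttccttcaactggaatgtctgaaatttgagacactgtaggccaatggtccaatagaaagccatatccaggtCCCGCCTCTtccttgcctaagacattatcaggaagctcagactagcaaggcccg
Gstm4, chr3:108044860-108045106: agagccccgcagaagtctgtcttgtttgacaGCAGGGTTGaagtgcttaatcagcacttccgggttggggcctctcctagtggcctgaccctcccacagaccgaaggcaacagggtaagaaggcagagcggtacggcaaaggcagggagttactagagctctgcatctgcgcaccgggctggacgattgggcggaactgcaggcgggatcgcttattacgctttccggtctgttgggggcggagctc

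Aligned over the whole 250 bases with gaps, the Gstm3 stretch had 58.1% identical positions with that of Gstm1, the Gstm4 stretch 51.7% and the Gstm2 stretch 48.4%. Among 32849 upstream stretches of the same length from other genes the median identity with Gstm1 was 48.3%, and 1 of them, that of Gstm3, reached 58.1%. From the upstream start of Gstm1 the identity with Gstm3 was 46.8%, which 79.7% of the stretches reached, so the closeness depends on the start taken. The 10-base run CCTCTCCCGG shared by Gstm1 and Gstm3 was found on either strand in 62 of the 32849, or 0.189%. It was picked as the longest run these stretches share, so its rarity elsewhere is no test of a shared element. How many other stretches share some run of that length with Gstm1 was not counted, and the longest runs of Gstm2 and Gstm4 had 9 bases. The core of the antioxidant response element, TGACNNNGC, was searched on both strands of the 300-base windows from 250 bases before to 50 after each start. It was found in 12.4% of 32851 windows and in 1 of 13 windows of the 9 members with an entry, that of Gsta3. In the Gsta3 stretch, plus strand, the match stands in capitals and begins 121 bases before the start.
Gsta3, chr1:21240335-21240584: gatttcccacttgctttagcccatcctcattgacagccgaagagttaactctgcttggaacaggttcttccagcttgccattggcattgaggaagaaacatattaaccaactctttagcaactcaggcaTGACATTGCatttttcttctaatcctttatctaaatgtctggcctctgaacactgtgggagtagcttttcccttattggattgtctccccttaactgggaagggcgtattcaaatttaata

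The log2 ratio of the Gstm1 signal to that of each other member within an array is nearly untouched by array scaling. Gstm1 was chosen for these ratios after its fall had been seen, so they describe the arrays and are given with no test. The ratio of Gstm1 to its neighbour Gstm4 was 2.54 to 4.02 in control and -1.61 to 1.83 in krill arrays, a difference in means of -3.47. Against Gsta2, Gsta3, Gsta4, Gstm2, Gstm4, Gstm6, Gstp1 and Gstt1 all 7 krill ratios lay below all 7 control ratios, with differences from -4.06 for Gsta3 to -3.06 for Gstm2. Against Gstm3 the difference was -2.36, and the groups overlapped through krill replicate 1. Without krill replicates 2, 4, 5 and 7 the 9 differences ran from -3.13 for Gsta3 to -1.24 for Gstm3.

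**Figure D3:**
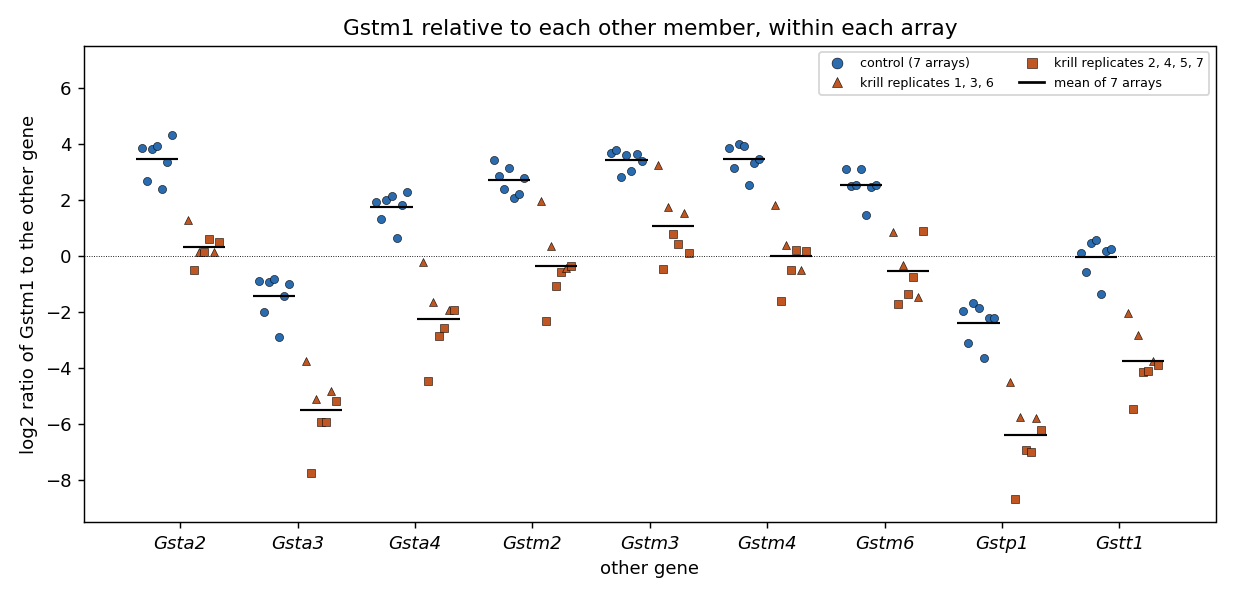
Log2 ratio of Gstm1 to each other member within every array, with circles for control, triangles for krill replicates 1, 3 and 6, squares for krill replicates 2, 4, 5 and 7, and a line at the mean of 7 arrays. The krill points lie below the control points for 8 of the 9 genes and overlap them for Gstm3.

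The alpha class showed no called change on a probe set of 1 gene. Gsta3, the alpha enzyme that protects mouse liver against aflatoxin epoxide, has 2 probe sets. On 1423436_at the control signal was 23267, 30813 and 35729 (lowest, median, highest) and the krill signal 26502, 39466 and 53601, with 5 of 7 krill arrays above the highest control. Its log2 change was 0.34 (95% confidence interval -0.02 to 0.70, limma adjusted p = 0.115), was called at 0.43 without krill replicate 7 (limma adjusted p = 0.0392), and turned to -0.21 with quantile normalization, -0.11 with arrays centred on their medians and -0.45 with spike-in scaling. The other probe set, 1423437_at, stood at -0.04 (interval -0.44 to 0.37, limma adjusted p = 0.892).

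Gsta4, which conjugates hydroxyalkenals from lipid peroxidation, read 2826, 3363 and 4069 in control and 2824, 4116 and 5486 in krill arrays. Its log2 change was 0.25 (95% confidence interval -0.10 to 0.59, limma adjusted p = 0.222), and 0.20 (interval -0.12 to 0.53) without krill replicates 2, 4, 5 and 7, with a sign that centring on medians (-0.20) and spike-in scaling (-0.54) turned. Gsta2, an inducible alpha enzyme, read 678, 1134 and 1296 in control and 330, 605 and 1283 in krill arrays. Its 4 lowest values were those of krill replicates 2, 4, 5 and 7, between 330 and 605, and krill replicates 1, 3 and 6 lay between 958 and 1283, inside the control range. The log2 change of -0.59 did not pass with all arrays (95% confidence interval -1.17 to -0.01, limma adjusted p = 0.0865), was called at -0.72 and -0.74 when krill replicate 1 or 3 was left out (limma adjusted p = 0.0324 and 0.0299), and was 0.14 without krill replicates 2, 4, 5 and 7. Spike-in scaling called it lower at -1.35 (limma adjusted p = 0.0175). The probe set shared by Gsta1, Gsta2 and Gm3776, whose transcripts it cannot separate, was called lower at -1.07 (SE 0.34, limma adjusted p = 0.0151) but stood at -0.08 (limma adjusted p = 0.792) without those 4 arrays and at -0.063 (limma adjusted p = 0.912) with the spike-in level as covariate.

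Gstp1, the pi-class enzyme abundant in male mouse liver, read 49307, 60423 and 72364 in control and 54410, 76961 and 102146 in krill arrays. In 4 of 7 krill arrays it was above the highest control, and its log2 change of 0.29 was not called (95% confidence interval -0.05 to 0.63, limma adjusted p = 0.153). Quantile normalization turned it to -0.40 and called it lower (limma adjusted p = 0.0126), centring on medians gave -0.16 and spike-in scaling -0.50 (limma adjusted p = 0.505 and 0.0565). Gstt1, a theta-class enzyme that acts on small halogenated compounds, read 11457, 11787 and 12511 in control and 10116, 11162 and 14507 in krill arrays. It had the narrowest interval of the members: the log2 change was -0.04 (95% confidence interval -0.30 to 0.23, limma adjusted p = 0.833), and 0.01 (interval -0.26 to 0.29) without krill replicates 2, 4, 5 and 7. Spike-in scaling put it at -0.82, outside that interval, and called it lower (limma adjusted p = 0.0186). These intervals leave room for changes up to their ends, so a missing call does not show equal levels.

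**Figure D4:**
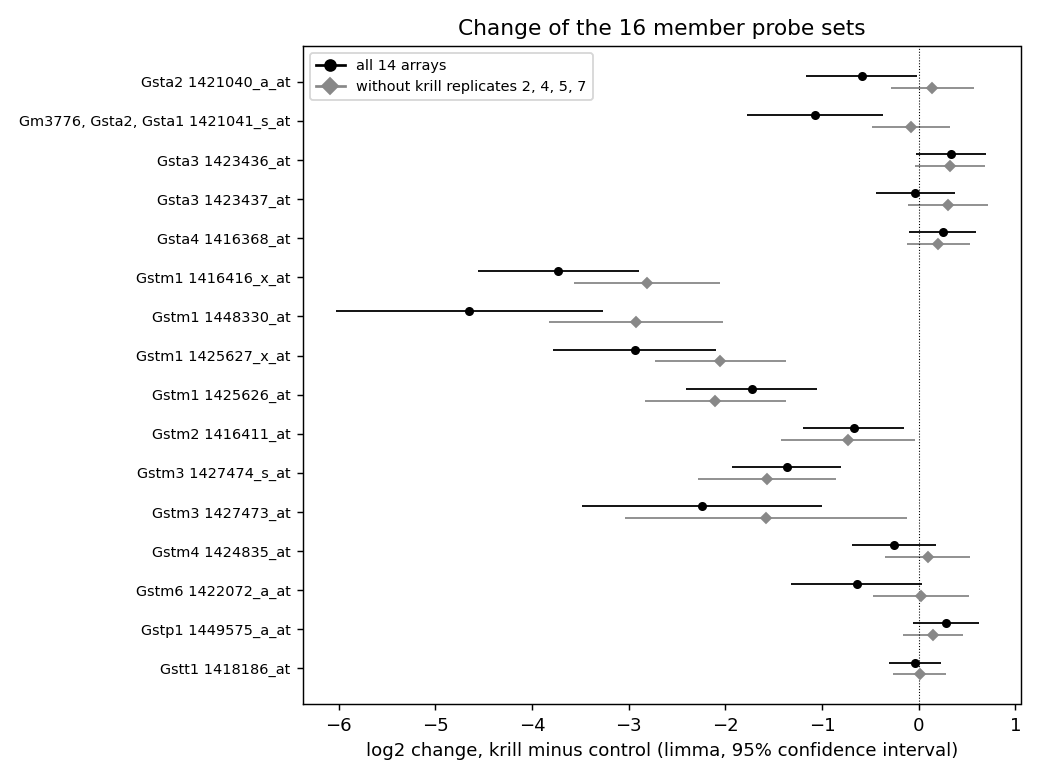
Log2 change, krill minus control, with its 95% confidence interval for the 16 probe sets, in black for all 14 arrays and in grey without krill replicates 2, 4, 5 and 7. The 4 Gstm1 probe sets and 1427474_s_at of Gstm3 stay below 0 and called in both, whereas the 2 Gsta2 probe sets and Gstm6 move to near 0 in grey.

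After each diet's mean was subtracted, members differed in how they varied from array to array. Gstp1 and Gsta3 varied alike (Pearson r = 0.81 over 14 arrays), as did Gstm4 and Gstm6 (r = 0.76), whereas r was 0.28 for Gstm1 and Gstm3. Among the members, r with Gstm1 was highest for Gsta2, 0.72, and lowest for Gstp1, -0.52. Among the other genes tested, the pattern most like that of Gstm1 was Aars (r = 0.956), followed by Aplp2 (r = 0.953) and Sdr42e1 (r = 0.952). For Gstm3 it was Ddb1 (r = 0.869), for Gsta2 Aldh3a2 (r = 0.953) and for Gstp1 Cisd1 (r = 0.942). These values describe arrays that share differences in quality, krill replicates 2, 4, 5 and 7 above all, and were not tested.

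Of 9 other soluble transferases tested, 2 were higher, 2 lower and 5 not called (median log2 change 0.08, against 0.05 over all genes). The background for this and the lists that follow is 23.7% higher and 25.3% lower of all genes, and the counts describe the lists without setting them apart from other genes. In the theta row on chromosome 10, which runs Gstt3, Gstt1, Gstt4, Gstt2, the outer genes went opposite ways: Gstt3 changed by -1.34 (SE 0.24, limma adjusted p = 0.000357) and Gstt2 by 0.69 (SE 0.16, limma adjusted p = 0.00222), each with no overlap between diets. Without krill replicates 2, 4, 5 and 7 they stood at -0.87 and 0.72, both still called, though Gstt2 lost its call at 0.24 with centring on medians (limma adjusted p = 0.458) and turned to -0.10 with spike-in scaling. Gstz1, the maleylacetoacetate isomerase of tyrosine breakdown, was higher by 0.97 (SE 0.17), or 0.69 with those arrays omitted, and lost its call at 0.18 with spike-in scaling (limma adjusted p = 0.478). Gstk1, the kappa enzyme of mitochondria and peroxisomes, changed by -1.25 (SE 0.33), a call lost without those arrays at -0.27 (limma adjusted p = 0.136). Of 2 tested membrane-bound transferases, the microsomal Mgst1 was called higher at 0.66 (SE 0.19), but quantile normalization gave -0.11, spike-in scaling -0.13, and omission of those arrays 0.24 (limma adjusted p = 0.275). With all arrays another Mgst1 probe set was called higher at 1.18 (limma adjusted p = 0.00463). Mgst3 stood at -0.40 and was not called (limma adjusted p = 0.145), whereas spike-in scaling called it lower at -1.18 (limma adjusted p = 0.0204).

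Of 14 tested genes that make, recycle or break down glutathione, 2 were higher and 5 lower (median 0.15, and 0.08 with 2 higher and 4 lower without krill replicates 2, 4, 5 and 7). The catalytic and modifier subunits of glutamate-cysteine ligase, the first step of synthesis, were lower: Gclc changed by -2.07 (SE 0.42, limma adjusted p = 0.000804) and Gclm by -1.06 (SE 0.25, limma adjusted p = 0.0022). In the 3 krill arrays with control-like spike-ins the changes were smaller, -0.78 and -0.46, and both still passed (limma adjusted p = 0.0123 and 0.0304). With the spike-in level as covariate both calls were lost, at -0.71 and -0.42 (limma adjusted p = 0.151 and 0.258). With all arrays another Gclm probe set stood at -0.55 and was not called (limma adjusted p = 0.104). Another of Gclc was called lower at -1.16 (limma adjusted p = 0.00079). The transsulfuration enzyme Cbs and the oxoprolinase Oplah changed by -1.30 (SE 0.23) and -1.18 (SE 0.22), and Chac2, which cleaves glutathione, by 1.22 (SE 0.21). Without krill replicates 2, 4, 5 and 7 these were -0.94, -0.91 and 0.83, all called, and with spike-in scaling Chac2 lost its call at 0.44 (limma adjusted p = 0.153). Glutathione reductase, Gsr, stood at -0.60 (limma adjusted p = 0.0643) and passed when krill replicate 1, 3 or 6 was left out. Its second probe set was called lower at -0.93 (limma adjusted p = 0.0256), the mean of both at -0.77 (limma adjusted p = 0.0312), and without krill replicates 2, 4, 5 and 7 the first stood at 0.11.

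Of 12 other enzymes that use glutathione, 6 were higher and 1 lower (median 0.38, and 0.38 without krill replicates 2, 4, 5 and 7, with 4 higher and 0 lower). Glrx, glutaredoxin, changed by 1.96 (SE 0.24), Gpx4, which reduces lipid hydroperoxides, by 1.55 (SE 0.22) and Adh5, of formaldehyde removal, by 0.93 (SE 0.18). Without those arrays all 3 were still called, at 0.56 to 1.51, but Adh5 lost its call at 0.14 with spike-in scaling and at 0.52 with the spike-in level as covariate (limma adjusted p = 0.526 and 0.0523). Glo1, a glyoxalase, was lower by log2 -1.09 (SE 0.30), a call lost at -0.25 without those arrays (limma adjusted p = 0.166). With all arrays other Glo1 probe sets were called lower at -1.34 and -0.59 (limma adjusted p = 0.006 and 0.00421), and another stood at 0.03. Of 8 genes of conjugate export and mercapturate formation 5 were lower and 1 higher (median -0.88, and -0.37 with 3 lower and 0 higher without those arrays). Abcc2, the pump that moves glutathione conjugates into bile, changed by -1.55 (SE 0.31, limma adjusted p = 0.000805), Abcc6 by -2.20 (SE 0.24) and Acy3, an acylase of mercapturates, by -1.96 (SE 0.29). Without those arrays the 3 stood at -0.82, -2.14 and -1.28, all called, and Abcc3, at -0.96 (SE 0.26) with all arrays, lost its call at -0.71 (limma adjusted p = 0.0688). The spike-in level as covariate ended the calls of Abcc2 (-0.82, limma adjusted p = 0.11) and Abcc3 (-0.72, limma adjusted p = 0.148).

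Among 15 transcription factors and regulators of detoxification genes 5 were lower and 1 higher (median -0.44, and -0.22 with 5 lower and 0 higher without krill replicates 2, 4, 5 and 7). Keap1 changed by -0.84 (SE 0.22, limma adjusted p = 0.00501), Mafg, a small partner of NRF2, by -2.44 (SE 0.46), the retinoid receptor Rxra, partner of CAR and PXR, by -1.82 (SE 0.23) and Cebpb by -1.76 (SE 0.28). Without those arrays they stood at -0.55, -1.41, -1.70 and -1.29, all called. With the spike-in level as covariate Keap1 (-0.59, limma adjusted p = 0.164) and Mafg (-1.18, limma adjusted p = 0.0897) were not called. Nfe2l2 stood at -0.44 (limma adjusted p = 0.0923), a value that passed at -0.58 without krill replicate 7 (limma adjusted p = 0.0147) and at -0.83 without all 4 (limma adjusted p = 0.00526), while its second probe set stood at 0.45 (limma adjusted p = 0.0795). The receptors CAR and PXR, Nr1i3 and Nr1i2, stood at 0.23 and -0.35 and were not called (limma adjusted p = 0.402 and 0.111), though centring on medians and spike-in scaling called Nr1i2 lower, at -0.78 and -1.12 (limma adjusted p = 0.0473 and 0.0119). Of 15 NRF2 targets that are not transferases, Gclc and Gclm among them, 1 was higher, 3 were lower and 11 were not called (median -0.23, and 0.03 without those arrays). Nqo1, the quinone reductase often used to read NRF2 activity, stood at 0.39 (limma adjusted p = 0.175). Txnrd1, a thioredoxin reductase, and Taldo1, of the pentose phosphate pathway, changed by -0.89 (SE 0.24) and 0.84 (SE 0.21), and stood at -0.28 and 0.45 without those arrays, where neither passed (limma adjusted p = 0.219 and 0.112).

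Zonation markers gave the setting within the liver lobule, since several transferases are richer around the central vein. Of 9 tested pericentral markers 1 was higher and 2 lower (median -0.41, and -0.43 with 0 higher and 3 lower without krill replicates 2, 4, 5 and 7). Their summed signal was 90615 to 123356 in control and 93728 to 153541 in krill arrays. Of 7 periportal markers 1 was higher and 5 lower (median -1.41, and -0.83 without those arrays). The part of zonation in the change of Gstm1 was not tested.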

How the data were processed

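Each mouse liver gave 1 array. Per the submitters' processing notes the deposited intensity values were made with MAS5, version not given in the sources used here, and in the deposited table each array has the same mean without the lowest and highest 2% of probe sets. Such scaling multiplies all values of an array, spike-ins included, by 1 factor. The sample titles gave the diet and the replicate number. Symbols came from the platform's gene table, with 34945 probe sets of 1 gene, 932 of several and 9160 unnamed, and 0 symbols needed updating.

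Signal was taken as log2(signal + 16). Non-control probe sets in the upper 50% by mean signal, 22519 in number, entered a linear model (limma 3.58.1, R 4.3.3, lmFit, eBayes with trend, no covariate), Benjamini-Hochberg adjusted, threshold 0.05. Each probe set was tested by itself, and for lists the brightest of a gene stood for it. Named genes were chosen by rule: all member probe sets, up to 4 genes of smallest p per list and a panel of 9. Alternatives were the pseudocount, signal filter, scaling, probe set choice, covariates, replicate block and arrays left out. Members, lists and alternatives were chosen with earlier results of these data known, and the Gstm1 ratios after their values were seen. Replicate numbers did not pair the mice: deviations of same-numbered arrays correlated at -0.03 to 0.09. The procedure was tested on simulated data. Promoter stretches were read and aligned in Python 3.11.15, with figures in matplotlib 3.10.9.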

Additional observations from a re-analysis of the deposited data

How the results depend on the processing

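Of 29 alternative fits, the 4 Gstm1 probe sets were called lower in all that tested them but the one with the 3'/5' index as covariate. The number of called probe sets, 10365, was 5566 with 1 probe set per gene and 5573 with a gene's probe sets averaged (both of 11343 genes, so fewer were tested), 3466 with the spike-in level as covariate, 6746 without krill replicates 2, 4, 5 and 7, and 0 by limma with the 3'/5' index as covariate, where 3241 had an unadjusted p under 0.05. The members called, 7 of 15 and all lower, were 11 with spike-in scaling (median -0.75 over all tested), 3 of 10 in either gene-level fit, and 0 with the 3'/5' index, where at an unadjusted p under 0.05 there were 3 lower and 1 higher. Leaving out 1 array gave 6 to 8 members lower, 0 to 1 higher, and 9016 to 11947 called probe sets. With the replicate number as a block 10088 probe sets and 7 members were called, and no named gene changed its call. Of called probe sets 45.2% were higher, 19.6% with arrays centred on their medians, 6.73% with spike-in scaling, 32.8% with the spike-in level, 33.4% without krill replicates 2, 4, 5 and 7, and 56.0% with no filter on signal. The ratio of Gstm1 to the 9 other members, described with no test, was lower on krill in all 18 alternatives in which it was taken (differences -4.98 to -1.24). The 3'/5' index as covariate was not among them, and in that fit Gstm1 (1416416_x_at) stood at -2.04 and Gstm3 (1427474_s_at) at -1.33.

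Signs turned as follows, and the cause was not tested. With the spike-in level as covariate Gsta2 stood at 0.13, Gsta3 (1423437_at) at 0.28, Gstm4 at 0.10, Gstm6 at 0.21, Gstt1 at 0.011, Mgst3 at 0.089 and Gsr at 0.16. With the 3'/5' index Gsta2 stood at 0.80, its shared probe set at 0.76, Gsta3 (1423437_at) at 0.55, Gstm4 at 0.32, Gstm6 at 0.53, Gstk1 at 0.20, Mgst3 at 0.49, Glo1 at 0.18, Nr1i2 at 0.16, Gsr at 0.42 and Nqo1 at -0.25. Without krill replicates 2, 4, 5 and 7 Gsta2 stood at 0.14, Gsta3 (1423437_at) at 0.31, Gstm4 at 0.092, Gstm6 at 0.029, Gstt1 at 0.012, Mgst3 at 0.072 and Gsr at 0.11. With quantile normalization Gsta3 (1423436_at) stood at -0.21, Gstp1 at -0.40 and Mgst1 at -0.11. With arrays centred on their medians Gsta3 (1423436_at) stood at -0.11, Gsta4 at -0.20, Gstp1 at -0.16, Nr1i3 at -0.22 and Nqo1 at -0.027. With spike-in scaling Gsta3 (1423436_at) stood at -0.45, Gsta4 at -0.54, Gstp1 at -0.50, Gstt2 at -0.10, Mgst1 at -0.13, Nr1i3 at -0.56 and Nqo1 at -0.34. With a gene's probe sets averaged Nfe2l2 stood at 0.0048. Leaving out 1 array moved Gsta3 (1423437_at) between -0.15 and 0.051. Low signal limits Gstm1 in krill arrays, where 1448330_at reached 18, near the pseudocount of 16, and Gstm3 on 1427473_at.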
